A study of Mus musculus with 3 samples.

Results

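The 40 cell cycle genes followed here are 40 of the 32285 genes counted. They were chosen by symbol as 16 genes of DNA replication and S-phase entry and 24 genes of G2 and mitosis, and all 40 were found. The libraries are single-cell RNA libraries, in which each unique molecular identifier (UMI) counts 1 captured transcript, and the genes were read in cells gated by markers as tumour, T cell, macrophage or fibroblast. There are 3 libraries, 1 for each group, labelled only as tumor tissue. All 3 groups carried LLC1-sgLkb1 cells, a mouse Lewis lung carcinoma line with LKB1 knocked down by a guide. In the series, lung lesions were seeded through the tail vein and served as the side kept out of the beam, and a second, subcutaneous tumour was the side for irradiation. The labels do not say from which lesion a library was made. The Flox+ICI library is from an Sfrp2fl/fl host given immune checkpoint inhibitor alone, and Flox+RI is from the same kind of host given radiation and the inhibitor. The third library is labelled CKO+RI, an Sfrp2ΔCol1a2 host, a name that points to loss of Sfrp2 in cells expressing the fibroblast collagen gene Col1a2, given radiation and the inhibitor. Sfrp2 gave 6, 8 and 42 UMIs in the cells kept from Flox+ICI, Flox+RI and, last, the library labelled CKO+RI. These are 0.0913, 0.0922 and 0.291 UMIs per 1e+06 UMIs (CPM), so the level over all kept cells does not follow the label. Of the cells kept from the library labelled CKO+RI, 53.1% were gated as tumour. The label points only to host cells expressing Col1a2, and no Sfrp2 level by gate is given here. The level over all cells therefore cannot check the label. A 3′ tag outside the deleted part would check nothing, and the sources used here do not give the deleted part.

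Cells enter S phase when cyclin-dependent kinases inactivate RB proteins and free E2F factors, which turn on genes for loading replication origins, for unwinding and copying DNA and for making nucleotides. Genes of G2 and mitosis are held off earlier in the cycle by the MuvB complex and are later driven by MYB and FOXM1, in large part through a short promoter element called CHR. Their products condense chromosomes, build the spindle, hold sister chromatids under checkpoint control and then split the cell. In tumours these transcripts are commonly used to mark dividing cancer cells and dividing T cells, whereas mature neutrophils have left the cycle.

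The promoters of the 2 phases were searched for both motifs. RefSeq promoters (GRCm38.p6, 250 bases before to 50 after the start) were found for 35 of the 40 genes, all except Mcm4, Ccne2, Ccna2, Aurkb and Tpx2. Genes were counted once, as having a motif when any of their promoters matched. The E2F motif GCGGGAA, searched on both strands, was present for 5 of 14 S-phase genes (35.7%) and 0 of 21 G2/M genes. It was present for 5.29% of all 27025 genes with a promoter. The CHR motif, TTTGAA or TTCGAA on either strand, was present for 17 of 21 G2/M genes (81.0%), 2 of 14 S-phase genes (14.3%) and 21.7% of all. The S-phase genes with the E2F motif were Mcm3, Mcm7, Rrm1, Cdt1 and Cdc6, and the G2/M genes without a CHR match were Nusap1, Cenpe, Birc5 and Ccnb1. The matches lay only after the start in Mcm3 and Cdt1, and in Cenpf, Bub1, Aurka, Cenpa, Plk1, Kif23, Hmmr and Kif20b. With GGCGGGAA for E2F the S-phase count was 2 of 14 against 2.52% of all, and with TTTGAA alone for CHR the G2/M count was 16 of 21 and the S-phase count 1 of 14, against 20.2% of all. A match is a description of the letters and not a mapped site. Printed below are the 250 bases before the start of an S-phase gene with an E2F match and of 3 G2/M genes with CHR matches that recur in the results, each 5′ to 3′ on the gene's strand, with matches in capitals.
Cdc6 (chr11:98907901-98908150, + strand), with the E2F match in capitals: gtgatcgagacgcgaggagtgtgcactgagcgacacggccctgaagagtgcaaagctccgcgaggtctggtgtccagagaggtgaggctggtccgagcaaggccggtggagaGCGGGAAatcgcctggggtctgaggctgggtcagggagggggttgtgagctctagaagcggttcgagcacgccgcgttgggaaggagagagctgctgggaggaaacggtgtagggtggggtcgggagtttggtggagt
Cdk1 (chr10:69352913-69353162, - strand), with CHR matches in capitals: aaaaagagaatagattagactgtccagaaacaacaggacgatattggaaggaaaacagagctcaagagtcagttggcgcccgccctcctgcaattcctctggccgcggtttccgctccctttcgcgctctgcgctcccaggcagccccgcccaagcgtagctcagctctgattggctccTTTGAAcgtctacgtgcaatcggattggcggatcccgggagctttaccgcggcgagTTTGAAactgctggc
Mki67 (chr7:135716380-135716629, - strand), with CHR matches in capitals: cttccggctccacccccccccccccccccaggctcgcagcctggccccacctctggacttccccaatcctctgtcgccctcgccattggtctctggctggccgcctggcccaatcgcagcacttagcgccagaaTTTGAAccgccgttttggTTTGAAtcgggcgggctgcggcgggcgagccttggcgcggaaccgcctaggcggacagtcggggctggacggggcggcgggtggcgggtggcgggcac
Top2a (chr11:99024190-99024439, - strand), with CHR matches in capitals: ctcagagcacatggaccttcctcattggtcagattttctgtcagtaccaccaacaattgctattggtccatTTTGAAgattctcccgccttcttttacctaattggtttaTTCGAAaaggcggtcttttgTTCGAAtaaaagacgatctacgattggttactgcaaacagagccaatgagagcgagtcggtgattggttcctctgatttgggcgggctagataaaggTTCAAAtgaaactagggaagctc

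After filters and doublet removal 29866 cells were kept, of which 16730 fell in the 4 gates. The libraries held 75543561 to 161250286 UMIs, and the library labelled CKO+RI stood apart in depth, with a median of 13496 UMIs per cell against 3011 in Flox+ICI and 2599 in Flox+RI. Pairs of libraries shared 26 to 29 barcodes, 85 to 146 cells per library passed several gates and 14.5% to 35.5% passed none. Gates are ranges cut from a marker score, and cells within 1.25-fold of a cut numbered at most 267 per library for tumour, 28 for T cells and 131 for macrophages. In the fibroblast gate of the library labelled CKO+RI, 259 cells lay near the cut against 145 inside it. Gated tumour cells were taken with Xist absent, and 7 of 14 tumour markers were above 100 CPM in every library, while Igf2bp1, Prl2c2 and Prl2c3 were under 2 in all. All 8 T cell and all 10 macrophage markers were above 100 CPM in their gates, against 6 of 12 fibroblast markers. With 1 library per group there is no replicate and no test between groups, and all intervals below are exact 95% intervals that cover counting error only.

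The tumour gate carried the most cell cycle RNA of the 4 in every library. It held 3015, 3979 and 4451 cells in Flox+ICI, Flox+RI and, last, the library labelled CKO+RI. The 24 G2/M genes summed to 2083, 2012 and 1972 CPM there, and the 16 S-phase genes to 830, 784 and 714 CPM. The T cell gate, of 849, 550 and 503 cells, came next with 1187, 1517 and 980 CPM of G2/M genes and 647, 705 and 628 CPM of S-phase genes. The macrophage gate, of 890, 1557 and 524 cells, held 463, 441 and 611 CPM of G2/M genes and 313, 285 and 341 CPM of S-phase genes. Gated neutrophils, cells that have left the cycle, held 398, 571 and 451 CPM of G2/M genes and 171, 239 and 218 CPM of S-phase genes. The macrophage G2/M sum was 1.16, 0.773 and 1.36 times the neutrophil sum, and the T cell sum 2.98, 2.66 and 2.18 times it. Neutrophils were shallower, with medians of 1084, 733 and 1872 UMIs against 5449, 4536 and 8220 in macrophages, and held 406, 848 and 579 CPM of tumour markers against 226, 411 and 436 CPM. Their level is therefore a reference only and not a measured background of another gate. The part of free RNA in it was not tested, and Kif23 was higher in neutrophils than in macrophages in every library.

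**Figure D1:**
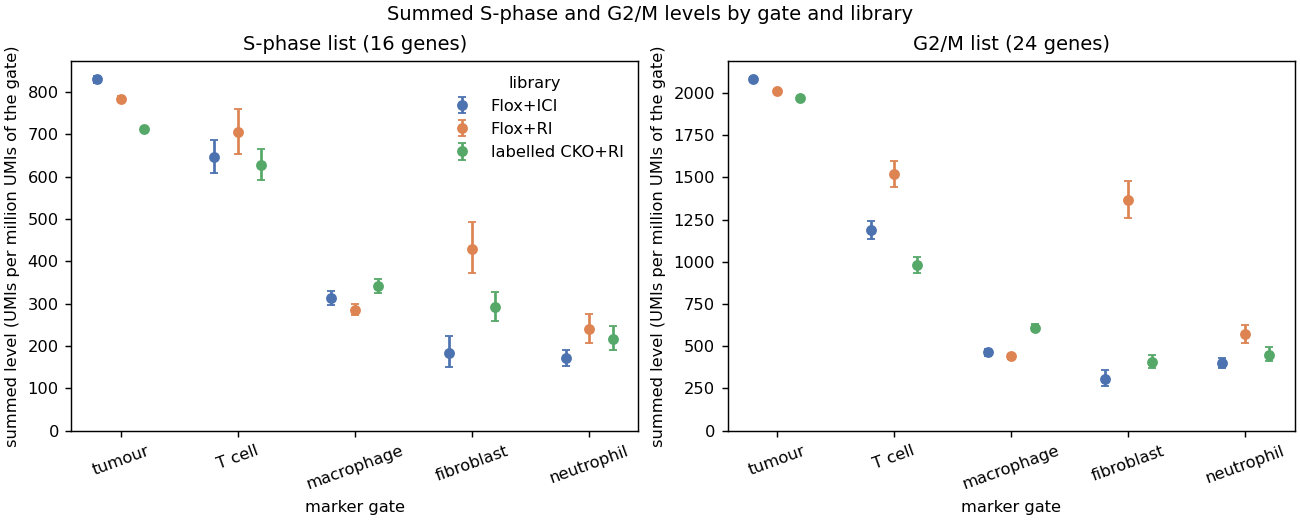
Summed levels (CPM, vertical axes) of the S-phase and the G2/M genes by marker gate, 1 point per library with its exact 95% Poisson interval. The tumour gate is highest in every library, and the macrophage gate is at 0.773 to 1.36 times the neutrophil level for G2/M genes.

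The balance of the phases was also read by gate. Tumour cells held 2.51, 2.57 and 2.76 G2/M UMIs for each S-phase UMI in the order above. T cells held 1.84, 2.15 and 1.56, and macrophages 1.48, 1.55 and 1.79. Fibroblasts held 1.67, 3.18 and 1.39, above tumour cells in Flox+RI, and neutrophils 2.33, 2.39 and 2.07, above T cells and macrophages in every library. The order tumour, T cell, macrophage was kept in Flox+ICI and Flox+RI, while in the library labelled CKO+RI the macrophage value was above the T cell value.

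The first comparison asked whether the host label went with a difference under the same treatment, with the library labelled CKO+RI set over Flox+RI. In tumour cells no gene of either phase was called. A gene was called when its levels differed at least 1.5-fold with an interval that left out 1, given at least 20 UMIs in both libraries together. Of all 16905 genes tested in this gate, 9.39% were called higher and 14.9% lower, against 0 of 16 S-phase and 0 of 24 G2/M genes in each direction. The summed S-phase level was 0.911 times that of Flox+RI (0.901 to 0.921) and the summed G2/M level 0.980 times (0.973 to 0.986).

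Within the call limit the S-phase genes of tumour cells leaned lower. The intervals of 11 of 16 lay below 1 and those of 2, Pcna and Mcm2, above it, and the median log2 ratio was -0.19 against -0.02 over all genes. E2f1, the founding E2F factor, stood at 48.3, 56.2 and 42.4 CPM in Flox+ICI, Flox+RI and, last, the library labelled CKO+RI, a ratio of 0.755 (0.723 to 0.787). Cdc6, which loads the replicative helicase at origins and whose promoter with its E2F match is printed above, stood at 12.5, 14.1 and 10.4 CPM, a ratio of 0.735 (0.674 to 0.801). Ccne2, a cyclin E that drives entry into S phase, stood at 9.45, 8.11 and 5.88 CPM, a ratio of 0.725 (0.647 to 0.812). For E2f1, Cdc6 and Ccne2 the library labelled CKO+RI was the lowest of the 3. Ccne1, the other cyclin E, stood at 24.5, 23.2 and 18.2 CPM, again lowest there.

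The helicase subunits did not all lie on one side. Mcm3 stood at 123, 97.2 and 90.2 CPM, and Mcm4, Mcm5, Mcm6 and Mcm7 had ratios of 0.785 to 0.845 to Flox+RI. Mcm2 stood at 18.2, 13.1 and 15.3 CPM, a ratio of 1.17 (1.08 to 1.27). Pcna, the sliding clamp of DNA polymerase, stood at 76.6, 62.8 and 71.3 CPM, a ratio of 1.14 (1.09 to 1.18). For Mcm2 and Pcna the Flox+RI library was thus the lowest of the 3. Of the nucleotide enzymes, Rrm2 of ribonucleotide reductase and thymidine kinase Tk1 had ratios of 1.03 (0.996 to 1.06) and 0.992 (0.954 to 1.03), both with intervals that include 1.

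The G2/M genes of tumour cells split evenly, with 9 of 24 intervals above 1 and 9 below it and a median log2 ratio of 0.00. Above 1 were the mitotic kinase Cdk1 and its cyclins Ccna2 and Ccnb2, the anaphase activator Cdc20, the centromere and kinetochore genes Cenpa, Cenpe and Cenpf, the kinase Aurkb and the spindle gene Nusap1. Cdk1 stood at 90.2, 84.0 and 110 CPM, a ratio of 1.31 (1.27 to 1.35). Cenpa, the centromeric histone H3 variant, stood at 109, 110 and 136 CPM, a ratio of 1.24 (1.20 to 1.27). Ccnb1, the other B cyclin, did not follow, at 67.2, 68.1 and 68.8 CPM.

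Below 1 were Birc5, Top2a, Mki67, Tpx2, Hmmr, Aurka, Plk1, Bub1 and Bub1b. Birc5, or survivin, which holds the chromosomal passenger complex together with Aurkb, stood at 205, 239 and 175 CPM, a ratio of 0.731 (0.716 to 0.746). Aurkb, its partner, stood at 27.2, 23.1 and 29.8 CPM, a ratio of 1.29 (1.21 to 1.37). Top2a, the topoisomerase that untangles sister chromatids, stood at 374, 323 and 257 CPM, a ratio of 0.795 (0.782 to 0.809). Mki67, which coats mitotic chromosomes, stood at 116, 98.4 and 89.0 CPM, a ratio of 0.905 (0.877 to 0.933). For Top2a and Mki67 the order of the 3 libraries was Flox+ICI, Flox+RI and then the library labelled CKO+RI, the last being lowest. Genes with CHR matches stood on both sides, Cdk1 above 1 and Top2a and Mki67 below it.

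**Figure D2:**
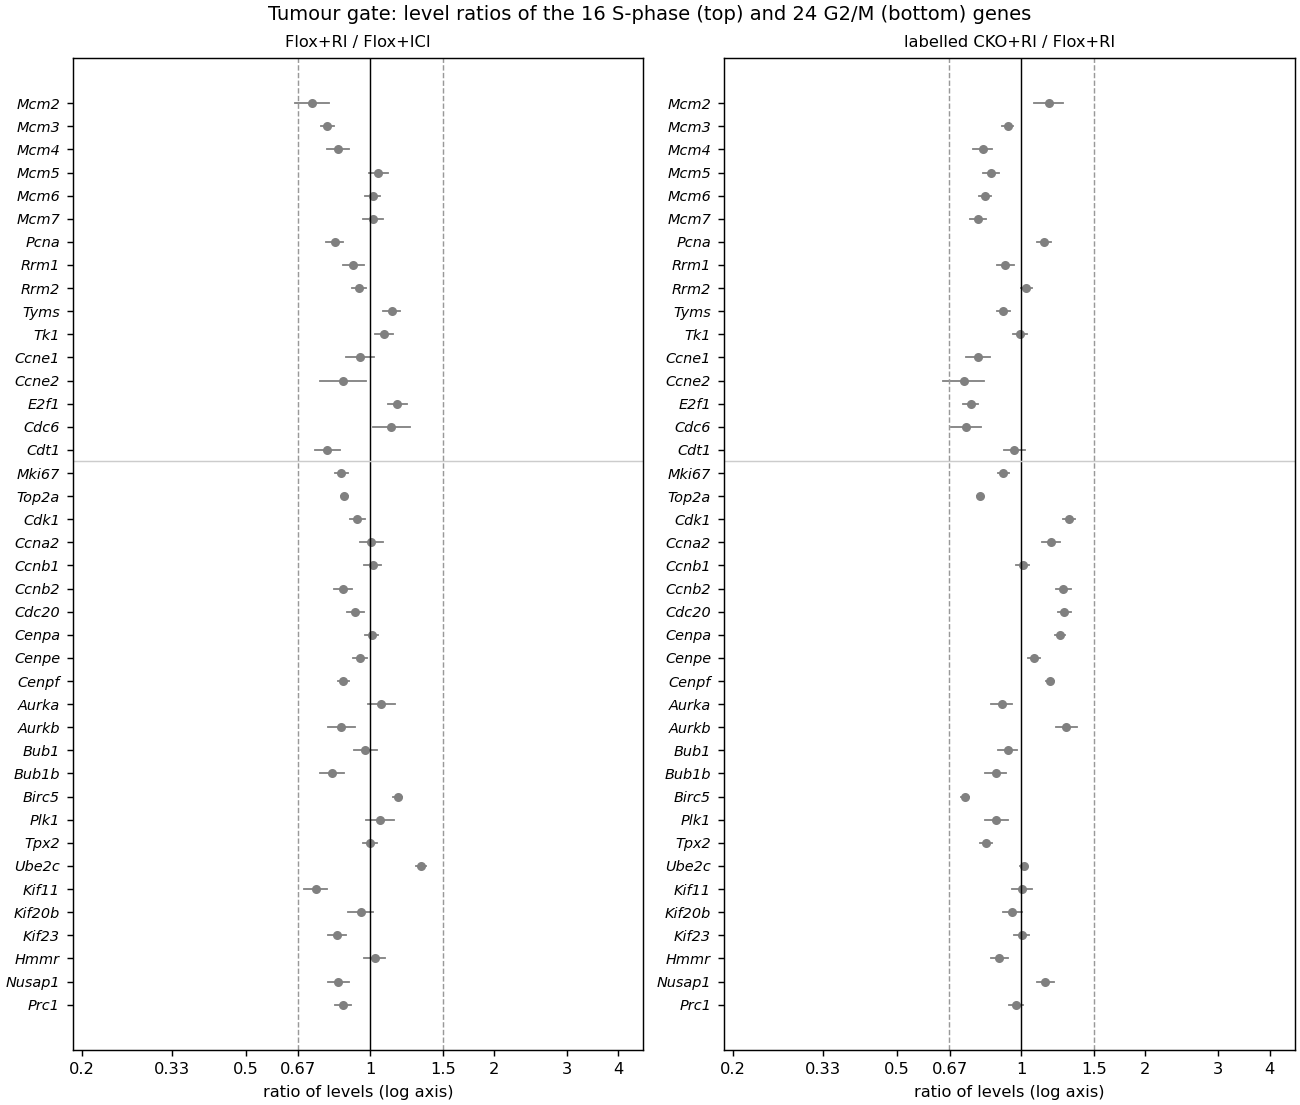
Ratio of levels in the tumour gate (log axis) for each of the 16 S-phase and 24 G2/M genes, Flox+RI over Flox+ICI on the left and the library labelled CKO+RI over Flox+RI on the right, with exact 95% intervals and dashed lines at the 1.5-fold limits. No gene passes the limits in either panel.

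The tumour gate was made of different clusters in each library. Clusters were made from all variable genes, which could include the 40, and one found in a single library may be that library and not a kind of cell. Cluster 6 held 962 cells, 21.6% of the tumour gate of the library labelled CKO+RI, and was not among the clusters listed with at least 1% of the gate in the others. Among the listed tumour clusters of that library it held the lowest levels, 561 CPM of S-phase and 1228 CPM of G2/M genes. In clusters 2, 3 and 5, each with at least 213 tumour cells in every library, the G2/M ratio of the library labelled CKO+RI to Flox+RI was 1.05 (1.03 to 1.07), 1.15 (1.12 to 1.17) and 1.13 (1.09 to 1.16). These lie on the other side of 1 from the ratio of the whole gate. The S-phase ratios there were 1.02 (0.984 to 1.05), 0.889 (0.853 to 0.927), and in cluster 5 the interval, 0.954 to 1.05, included 1. Other clusters did not share one direction. Cluster 7, 47.6% of the Flox+RI gate, held 1860 CPM of G2/M genes in the library labelled CKO+RI (67 cells) against 2136 in Flox+RI (1894 cells). Cluster 11 was lower there too, at 2113 against 2650 CPM (171 and 69 cells). Cluster 4 was higher, at 2309 against 2232 CPM (213 and 58 cells). The part of cluster makeup in the gate's ratios was not tested further. A stricter tumour gate dropped cells with any UMI of another gate's defining markers, a rule that depends on depth. It left 348 of 4451 cells in the library labelled CKO+RI and 656 of 3979 in Flox+RI. The G2/M ratio was then 0.690 and the S-phase ratio 0.718, with 10 G2/M and 6 S-phase genes called lower. The share of all genes called under this gate and the depth of the cells kept are not given here.

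The other comparison in the tumour gate, Flox+RI against Flox+ICI, asked what went with radiation in hosts of the same label, and it shares the Flox+RI library. Again 0 of 16 S-phase and 0 of 24 G2/M genes were called in either direction, against 5.39% higher and 19.8% lower of 16396 genes. All genes together had a median log2 ratio of -0.24 here, and the S-phase and G2/M genes had medians of -0.09 each, above that shift. Ube2c, the ubiquitin-conjugating enzyme that works with the anaphase-promoting complex, stood at 173, 229 and 232 CPM in the usual order, a ratio of 1.33 (1.29 to 1.36) for Flox+RI over Flox+ICI. Kif11, the motor that pushes spindle poles apart, stood at 39.2, 28.9 and 29.1 CPM, a ratio of 0.737 (0.691 to 0.787). Mcm2 had the lowest S-phase ratio, 0.724 (0.657 to 0.797). The stricter gate reversed the summed ratios, to 1.77 for G2/M and 1.69 for S-phase genes, from 656 cells in Flox+RI and 106 in Flox+ICI. It called 12 G2/M and 8 S-phase genes higher, again without a share of all genes beside them.

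In the T cell gate the G2/M genes were lower in the library labelled CKO+RI than in Flox+RI, and no S-phase gene passed the call. The summed G2/M level was 1.55-fold lower (1.44 to 1.66), and the summed S-phase level 1.12-fold lower (1.02 to 1.23). Of the 24 G2/M genes, 11 were called lower and 0 higher, where 7.73% of 9390 genes were called lower and 9.71% higher. The S-phase genes called were 0 of 16 in each direction. The median log2 ratio was -0.66 for G2/M genes, -0.25 for S-phase genes and 0.06 for all genes.

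Mki67, a common marker of dividing cells, had the lowest ratio of the 11. It stood at 145, 175 and 50.7 CPM in Flox+ICI, Flox+RI and, last, the library labelled CKO+RI, a ratio of 0.289 (0.222 to 0.376). Top2a stood at 168, 216 and 88.8 CPM, a ratio of 0.411 (0.332 to 0.507). Birc5 stood at 146, 193 and 97.9 CPM, a ratio of 0.507 (0.410 to 0.626). For Mki67, Top2a and Birc5 the library labelled CKO+RI was also below Flox+ICI. The other 8 called genes were Aurkb, the checkpoint kinase Bub1b, the spindle genes Hmmr, Tpx2 and Prc1, the kinesins Kif23 and Kif20b that act in cell division, and the kinetochore gene Cenpf, with ratios of 0.325 to 0.647.

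Other G2/M genes of T cells did not follow. Cenpa stood at 88.6, 93.0 and 132 CPM, a ratio of 1.42 (1.11 to 1.83), whose interval lay above 1 but which did not reach 1.5-fold. Cdk1 stood at 30.7, 48.0 and 50.1 CPM, a ratio of 1.04 (0.726 to 1.52). Ccnb2 and Cdc20 had ratios of 1.21 (0.843 to 1.77) and 1.20 (0.807 to 1.80), on 45 and 39 UMIs in Flox+RI. Among S-phase genes Pcna stood at 78.5, 92.0 and 108 CPM and Mcm3 at 73.2, 88.0 and 63.2 CPM, and only the interval of Mcm3, 0.718 (0.538 to 0.960), left out 1. Ccne1 stood at 15.9, 22.0 and 15.4 CPM and Mcm2 at 19.5, 14.0 and 15.9 CPM, from 14 to 33 UMIs per library.

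The 5 cells richest in G2/M UMIs held 16.2%, 13.2% and 23.3% of the gate's G2/M UMIs in the usual order. The number of G2/M genes called lower was 4, not 11, when each cell was thinned to 1000 UMIs, with a summed ratio of 0.738, and also 4 under the stricter gate, with 0.709. Under each of these 1 G2/M gene was called higher. Both alternatives leave fewer UMIs, and the share of all genes called under them is not given here. Tumour-marker RNA in the T cell gate was 294, 478 and 527 CPM. In T cells of at least 1000 UMIs with at least 3 G2/M UMIs per 1000, which numbered 45, 40 and 20, it was 163, 344 and 305 CPM, below the 305, 505 and 545 CPM in the other T cells of the same libraries. The median depth of gated T cells was 1575, 1394 and 2878 UMIs. The part of depth in the result was not tested beyond the thinned value.

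Against Flox+ICI, the Flox+RI T cells held more G2/M RNA, with a summed ratio of 1.28 (1.19 to 1.37) and an S-phase ratio of 1.09 (0.991 to 1.20). Of the 24 G2/M genes 5 were called higher and 0 lower, where 3.34% of 9332 genes were called higher and 7.54% lower, with medians on the log2 scale of 0.38 for G2/M genes and -0.10 for all genes. They were Ccnb1, Ube2c, Cenpe, Cdk1 and Prc1. Ccnb1, the cyclin whose pairing with Cdk1 starts mitosis, stood at 28.9, 54.0 and 42.1 CPM in the usual order, a ratio of 1.87 (1.24 to 2.81). Ube2c stood at 70.3, 117 and 102 CPM, a ratio of 1.67 (1.28 to 2.17). With no doublets removed 2 G2/M genes were called higher and 1 S-phase gene lower. Under the stricter gate 2 G2/M and 3 S-phase genes were called higher, with an S-phase sum of 1.60. No share of all genes called stands beside the counts under these alternatives. By the main rule no S-phase gene was called. Mcm7, a helicase subunit that overlaps Cops6 and Ap4m1 on the other strand, had the only S-phase interval that left out 1, at 1.41 (1.01 to 1.96).

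The T cell gate was also split by the T cell genes detected, a split that depends on depth. Cells with Cd8a or Cd8b1 UMIs but no Cd4 or Foxp3 held 1774, 895 and 1279 CPM of G2/M genes in Flox+ICI, Flox+RI and, last, the library labelled CKO+RI, from 249, 141 and 201 cells. In them the ratio of the library labelled CKO+RI to Flox+RI was 1.43 (1.23 to 1.66), opposite in direction to the whole gate. Cells with Cd4 but no Cd8a, Cd8b1 or Foxp3 held 848, 1880 and 456 CPM, from 99, 46 and 59 cells, 4.12-fold lower (3.19 to 5.37) in the library labelled CKO+RI than in Flox+RI. Cells with Foxp3, the factor of regulatory T cells, and no Cd8a or Cd8b1 held 2478, 3507 and 1719 CPM, but numbered only 22, 36 and 16. Cells with none of these genes detected, or a mix, made up the largest share, 479, 327 and 227 cells, and held 669, 1326 and 597 CPM. Differences between these kinds of cell were not tested, and 5 cells held 14.5% to 90.8% of the G2/M UMIs of a kind in a library.

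**Figure D3:**
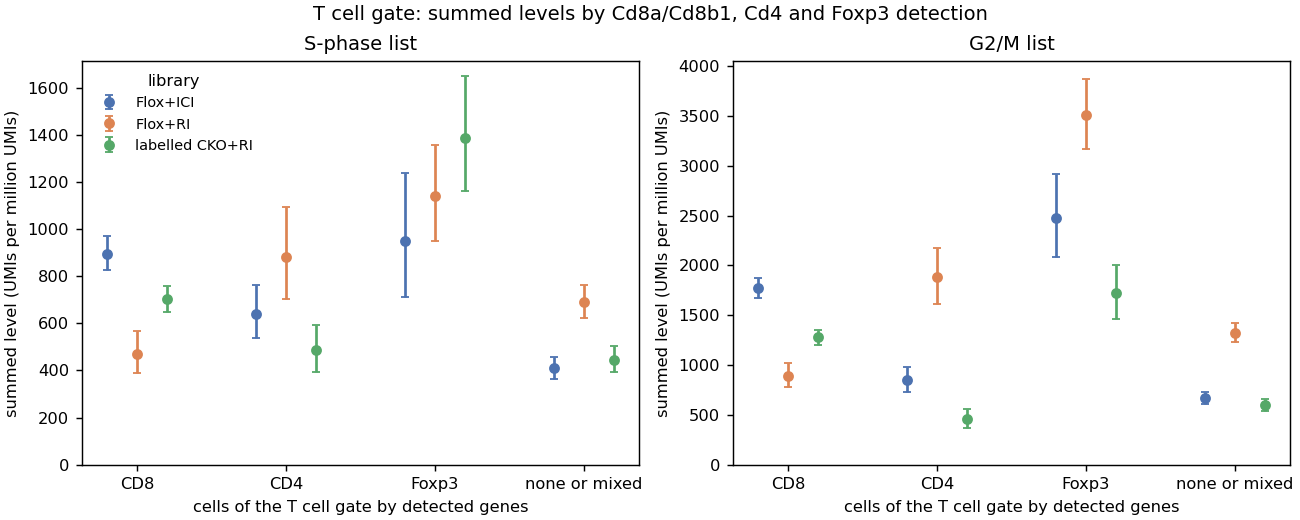
Summed levels (CPM, vertical axes) of S-phase and G2/M genes in the T cell gate, split by detection of Cd8a or Cd8b1, Cd4 and Foxp3, 1 point per library with its exact 95% Poisson interval. Flox+RI is the lowest library among CD8 cells and the highest among the other kinds for G2/M genes.

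Single genes within the CD8 cells did not share one order. Mki67 stood at 240, 59.4 and 66.3 CPM and Top2a at 264, 140 and 109 CPM in the usual order, so Flox+ICI was highest for both. Cenpa stood at 129, 46.7 and 183 CPM and Pcna at 100.4, 46.7 and 122 CPM, with the library labelled CKO+RI highest for both. Flox+RI values here rest on 11 to 33 UMIs each.

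In the macrophage gate the library labelled CKO+RI held more RNA of both phases than Flox+RI. The summed G2/M level was 1.38 times that of Flox+RI (1.31 to 1.46) and the summed S-phase level 1.19 times (1.12 to 1.28). The 5 cells richest in G2/M UMIs held 15.8%, 9.39% and 26.3% of the gate's G2/M UMIs in Flox+ICI, Flox+RI and, last, the library labelled CKO+RI. For S-phase UMIs the 5 richest cells held 8.89%, 4.18% and 11.4%. Of 24 G2/M genes 9 were called higher and 0 lower, and of 16 S-phase genes 4 higher and 0 lower, where 14.7% of 12151 genes were called higher and 11.7% lower. Median log2 ratios were 0.49 for G2/M genes, 0.35 for S-phase genes and 0.10 for all genes.

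The genes called higher covered several steps of division. Cdt1, which loads the helicase together with Cdc6, stood at 15.2, 10.8 and 21.0 CPM in the usual order, a ratio of 1.95 (1.43 to 2.67). Tk1 stood at 15.7, 11.8 and 20.6 CPM, and thymidylate synthase Tyms at 16.9, 15.6 and 25.5 CPM, with ratios of 1.75 (1.29 to 2.38) and 1.64 (1.25 to 2.15). Mcm2 was the last S-phase gene called, at 6.51, 4.49 and 8.51 CPM. In each of these the library labelled CKO+RI was highest and Flox+RI lowest.

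Among G2/M genes Aurkb stood at 7.12, 3.93 and 10.5 CPM, a ratio of 2.68 (1.64 to 4.44) that rests on 28 UMIs in Flox+RI. Cenpe, the kinesin that carries chromosomes to the spindle equator, stood at 12.8, 13.1 and 26.9 CPM, a ratio of 2.06 (1.56 to 2.73). Cenpa stood at 33.3, 27.5 and 52.6 CPM, a ratio of 1.91 (1.58 to 2.32). Cdk1, Cenpf, the checkpoint genes Bub1 and Bub1b, and the kinesins Kif11 and Kif23 were the others, with ratios of 1.62 to 2.10. Mki67 was not among them, at 53.3, 51.9 and 45.9 CPM, a ratio of 0.884 (0.742 to 1.05), and neither were Top2a, at 51.8, 49.8 and 67.2 CPM, nor Ccnb1, at 15.7, 12.8 and 17.9 CPM. Top2a stayed within the 1.5-fold limit, though its level intervals did not overlap, 59.8 to 75.2 CPM against 44.8 to 55.3 CPM in Flox+RI. Pcna did not differ beyond its interval, at 67.9, 70.2 and 69.9 CPM, nor did Ccne1, at 11.6, 8.56 and 7.61 CPM.

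**Figure D4:**
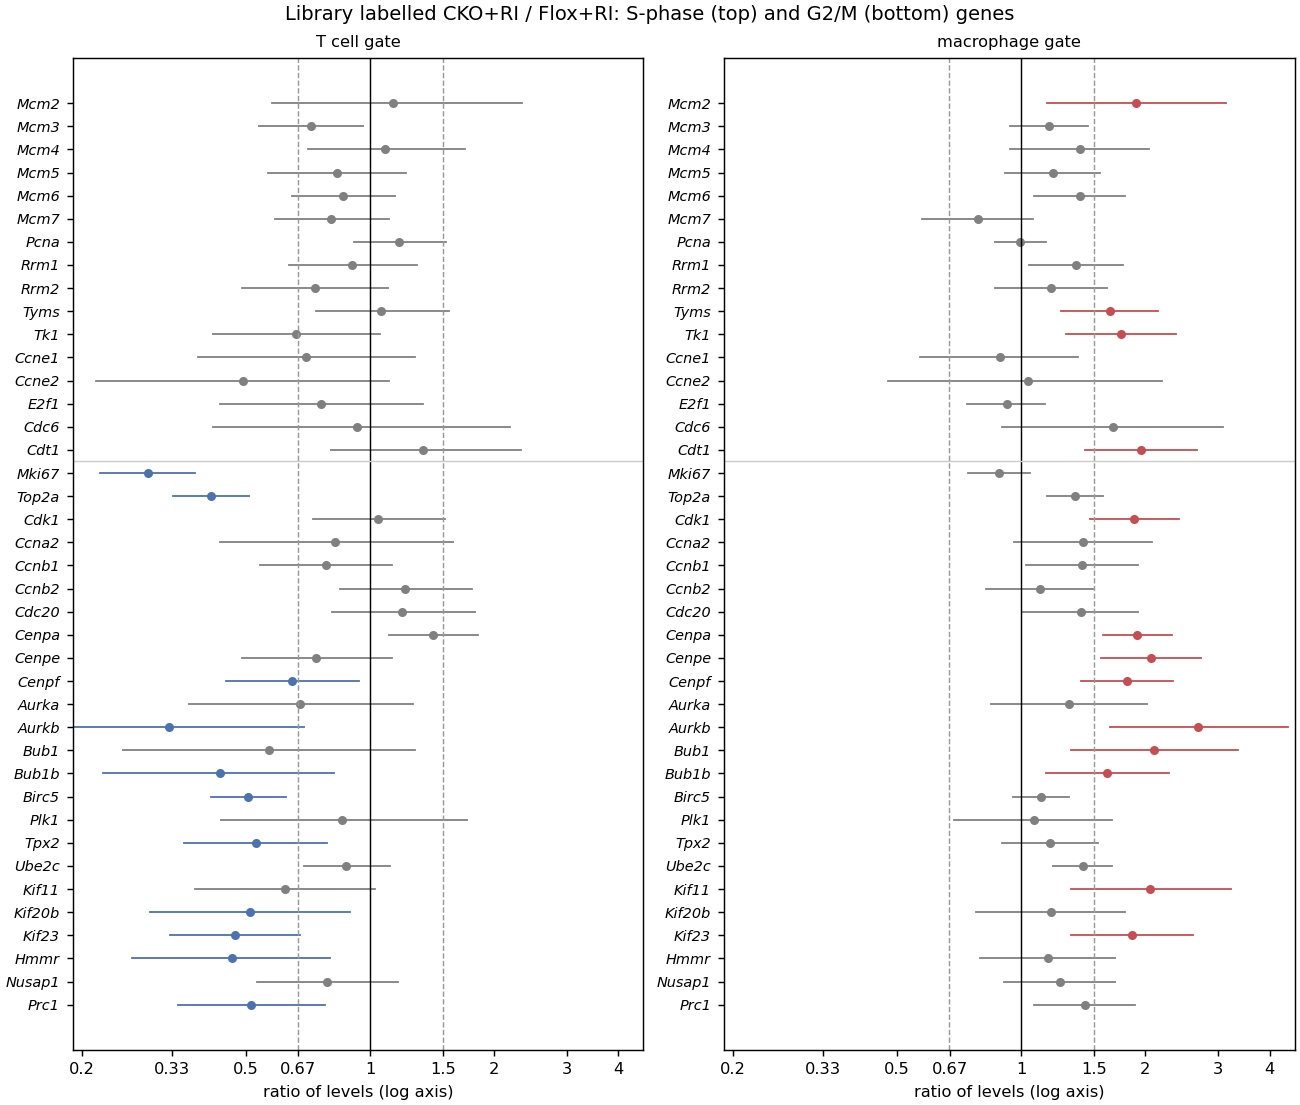
Ratio of levels in the library labelled CKO+RI over Flox+RI (log axis) for the 16 S-phase and 24 G2/M genes in the T cell gate (left) and the macrophage gate (right), with exact 95% intervals and dashed lines at the 1.5-fold limits; blue points were called lower and red points higher. In T cells 11 G2/M genes are called lower, and in macrophages 9 G2/M and 4 S-phase genes are called higher.

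The higher sum went with a different makeup of the macrophage gate. Cluster 9 held 31.7%, 29.9% and 76.9% of it in the usual order, and cluster 8 held 59.9%, 67.1% and 14.7%. Cluster 9 had more Mrc1, the mannose receptor, at 926, 1765 and 1628 CPM against 163, 98.5 and 152 CPM in cluster 8, and less Trem2, a lipid-sensing receptor, at 636, 668 and 529 against 1650, 1052 and 1100 CPM.

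Levels of the G2/M genes were higher in cluster 9 than in cluster 8 in every library, at 902, 681 and 686 CPM against 241, 334 and 293 CPM. The levels in cluster 8 lay below the neutrophil level in all 3 libraries and those in cluster 9 above it. Within cluster 9 the G2/M ratio of the library labelled CKO+RI to Flox+RI was 1.01 (0.943 to 1.07) and the S-phase ratio 0.986 (0.902 to 1.08). Within cluster 8 they were 0.877 (0.758 to 1.01) and 0.916 (0.775 to 1.08), from 77 and 1045 cells. Called higher within cluster 9 were 3 G2/M and 1 S-phase genes, and within cluster 8 none of either. Called lower were 2 S-phase genes within cluster 9, and 1 S-phase and 1 G2/M gene within cluster 8. The share of all genes called within each cluster is not given here. These counts, from fewer cells, are therefore not set against the counts of the whole gate. These splits were chosen after seeing the data, and the clusters were made from genes that could include the 40. Thinning each cell to 1000 UMIs left 2 G2/M genes and 1 S-phase gene called higher, and the stricter gate 1 and 0. Both leave fewer UMIs, and their shares of all genes called are not given here.

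The same gate was compared between Flox+RI and Flox+ICI. The summed G2/M ratio of Flox+RI to Flox+ICI was 0.952 (0.902 to 1.01) and the S-phase ratio 0.911 (0.852 to 0.974). The helicase subunit Mcm4, at 13.2, 8.56 and 11.9 CPM in the usual order, was the only S-phase gene called, and Ccnb2 and Aurkb were the 2 G2/M genes called, all lower, where 8.86% of 12365 genes were called lower and 5.68% higher. Ccnb2 stood at 24.6, 15.7 and 17.5 CPM, a ratio of 0.639 (0.490 to 0.833). Under the stricter gate the G2/M sum was 1.86, with 4 genes called higher and 0 lower, and the S-phase sum reversed to 1.12 with 0 called lower. The 2 G2/M calls were also lost with doublets kept and with thinning to 1000 UMIs. Counts under these alternatives are given without the share of all genes called. The clusters lay on opposite sides of 1, with G2/M ratios of 1.39 (1.27 to 1.51) within cluster 8 and 0.755 (0.701 to 0.812) within cluster 9. The difference between the clusters was not tested.

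The fibroblast gate was small, at 217, 50 and 145 cells, and its cell cycle counts rested on few of them. Its G2/M genes summed to 308, 1366 and 408 CPM, of which 5 cells held 43.7%, 70.6% and 44.4% in the usual order. Flox+ICI and the library labelled CKO+RI lay at 0.775 and 0.906 times their neutrophil level, and Flox+RI at 2.39 times. Against Flox+RI the library labelled CKO+RI had 16 of 18 tested G2/M and 2 of 11 tested S-phase genes called lower, where 11.1% of 8443 genes were called lower and 12.9% higher. Against Flox+ICI, Flox+RI had 13 of 15 tested G2/M and 2 of 5 tested S-phase genes called higher, where 13% of 7130 genes were called higher and 20% lower. Genes tested are those with at least 20 UMIs in the pair of libraries, so genes with high counts in Flox+RI alone entered through that library. Hmmr, a spindle assembly gene, gave 6, 36 and 11 UMIs, and Ccnb1 gave 11, 31 and 9. With each cell thinned to 1000 UMIs, and also under the stricter gate, no member was called in either comparison. Both leave fewer UMIs, and no share of all genes called is given for them. Tumour-marker RNA in this gate was 303, 624 and 2115 CPM. The gate held different cells by library: Inmt stood at 1868, 23.5 and 977 CPM, Clec3b at 913, 57.7 and 499.6 CPM, and Col1a1 at 689.5, 3913 and 523 CPM. In the library labelled CKO+RI 14 of its cells, with 267179 UMIs, fell in tumour cluster 6. The part of this makeup in the result was not tested.

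Shares of cells gave the same order of gates as the sums for tumour and T cells. After thinning each cell to 2000 UMIs, the share of tumour cells with at least 2 G2/M UMIs was 57.7% (55.9 to 59.5), 62.1% (60.6 to 63.7) and 51.4% (49.9 to 52.9) in the usual order. The unthinned shares were 89.1%, 88.9% and 94.8%, at median depths of 14658, 15955 and 24843 UMIs, so the library labelled CKO+RI was highest before thinning and lowest after it. Thinning left out 56, 253 and 96 tumour cells. In T cells the thinned share was 40.9% (34.7 to 47.3), 59.2% (49.9 to 68.0) and 30.1% (25.6 to 34.9), and the unthinned share 23.2%, 26.4% and 43.5%. The T cell values rest on the 247, 122 and 392 deepest cells, since 602, 428 and 111 cells had fewer than 2000 UMIs. T cells with both lists present were deeper before thinning, with medians of 4331, 5455 and 4186 UMIs against 2561, 2373 and 3082 in cells with neither. Thinned to 1000 UMIs, which left out 85, 92 and 16 cells, the share was 13.7%, 18.4% and 14.0%, so the library labelled CKO+RI was no longer below Flox+ICI.

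In macrophages the share thinned to 2000 UMIs was 12.6%, 14.0% and 17.4%. Neutrophils had expected shares of 23.6%, 10.1% and 20.2%, from 87, 6 and 229 cells. Their shares were above those of macrophages in Flox+ICI and in the library labelled CKO+RI. With 6 cells the Flox+RI value cannot be set against that of macrophages. With at least 3 G2/M UMIs after thinning to 1000, a measure added after seeing the data, macrophages had 3.11%, 2.55% and 4.16% against 0.997%, 0.863% and 1.15% in neutrophils. T cells had 7.09%, 10.2% and 5.92% by the same measure, and tumour cells 28.2%, 28.8% and 25.5%.

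The thinned tumour cells were also split by phase, with at least 2 UMIs of a list counted as present. S-phase genes alone were present in 9.36%, 9.37% and 9.35% of cells in the usual order, with little spread between libraries at 2000 UMIs. G2/M genes alone were present in 28.7%, 32.3% and 27.5%, and both lists in 30.3% of Flox+RI cells against 23.5% for the library labelled CKO+RI. Neither list was present in 32.0%, 28.0% and 39.6%, highest in the library labelled CKO+RI. In T cells both lists were present in 21.9%, 33.6% and 9.18%, and S-phase genes alone in 11.7%, 9.02% and 15.1%. Thinned to 1000 UMIs, which kept more cells, both lists were present in 4.84%, 5.90% and 2.87% of T cells, and S-phase genes alone in 4.97%, 5.02% and 6.16%. In tumour cells thinned to 1000 UMIs, S-phase genes alone were present in 8.92% (7.92 to 9.99), 8.25% (7.40 to 9.17) and 7.48% (6.72 to 8.30). The share was then lowest in the library labelled CKO+RI, with intervals that overlapped. Phase calls alone do not show that a cell is cycling.

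Other genes of the cycle were taken from 6 lists outside the 40. In macrophages, with the library labelled CKO+RI set over Flox+RI, the D cyclins and G1 kinases had 2 of 6 genes called higher and 0 lower, where 14.7% of all genes were called higher. Ccnd1, the cyclin that links growth signals to RB, had 97.8 CPM against 28.5, a ratio of 3.43 (2.90 to 4.08), and Ccnd3 a ratio of 0.791 (0.703 to 0.890). Of the RB and E2F family 3 of 11 were called higher, led by the repressor E2f7 at 2.39 (1.22 to 4.82), and of checkpoint and mitotic exit genes 2 of 8 tested, led by Wee1, the kinase that restrains Cdk1, at 2.76 (2.05 to 3.76). CDK inhibitors had 1 gene of 5 tested on each side, Cdkn2d at 1.65 (1.36 to 1.99) and Cdkn1c at 0.271 (0.117 to 0.554). The MuvB, MYB and FOXM1 list had Lin9, a MuvB subunit, called higher (1 of 6), and origin licensing had Orc6 (1 of 11). Lists this small cannot be set apart from the share over all genes by such counts.

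In T cells the same comparison called 1 of 6 D cyclins and kinases lower. It called 1 gene on each side of the MuvB, MYB and FOXM1 list (6 tested) and of the checkpoint list (7 tested). Of all 9390 genes 7.73% were called lower and 9.71% higher, and lists this small cannot be set apart from those shares. Ccnd3, the D cyclin of lymphocytes, had 343 CPM against 522, a ratio of 0.656 (0.583 to 0.739). The MuvB subunits parted, with Lin54, which binds the CHR element, at 0.418 (0.304 to 0.572) and Lin37 at 1.99 (1.16 to 3.57). Ccnf was called lower at 0.398 (0.186 to 0.829) and Mad2l1 higher, and no CDK inhibitor, RB and E2F family or origin gene was called. In tumour cells Cdk2, at 1.52 (1.36 to 1.70), and the inhibitors Cdkn2c and Cdkn2d were called higher, and none of the 6 lists had a gene called lower. Of all genes tested there 9.39% were called higher and 14.9% lower. For Flox+RI against Flox+ICI, tumour cells had 6 of 48 tested genes of the 6 lists called lower and 0 higher, a smaller share than the 19.8% of all genes called lower, with Lin52 lowest at 0.421 (0.391 to 0.453) and Cdk6 at 0.590 (0.573 to 0.608).

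Single genes took very different shares of their list by gate. Mki67 made up 12.2%, 11.5% and 5.17% of the G2/M UMIs of T cells in the usual order and 11.5%, 11.8% and 7.52% of those of macrophages, against 5.56%, 4.89% and 4.52% in tumour cells. Its share was lowest in the library labelled CKO+RI in each of these gates. Cenpa made up 7.46%, 6.13% and 13.5% of the G2/M UMIs of T cells, highest in the library labelled CKO+RI. Pcna made up 21.7%, 24.6% and 20.5% of the S-phase UMIs of macrophages and 9.22%, 8.01% and 9.99% of those of tumour cells.

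**Figure D5:**
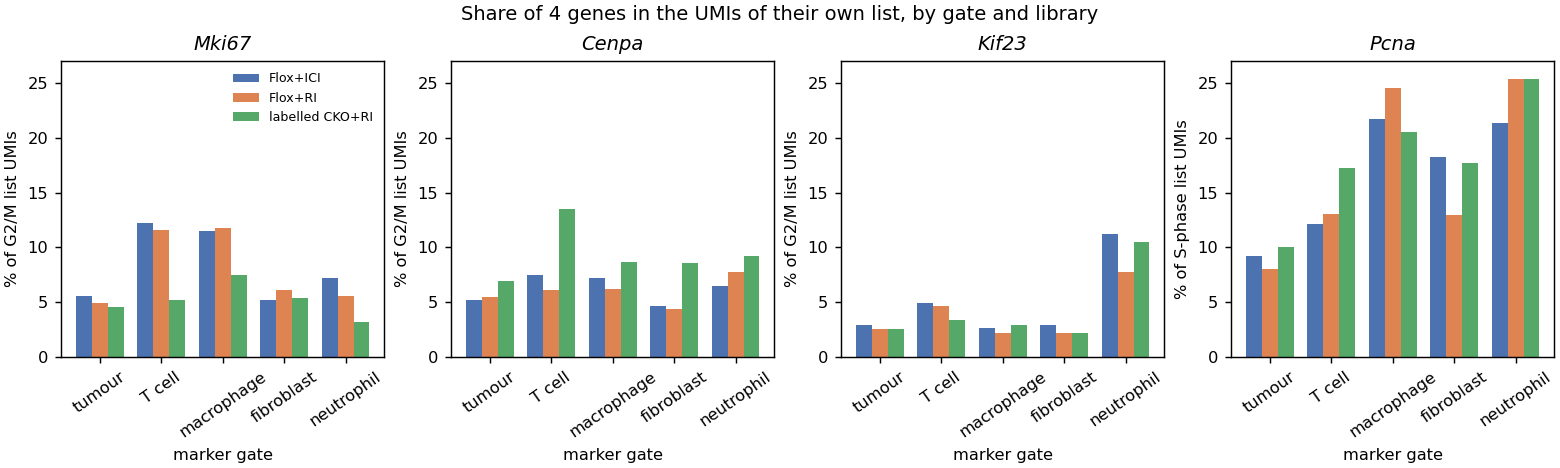
Share of Mki67, Cenpa and Kif23 in the G2/M UMIs and of Pcna in the S-phase UMIs (percent, bars from 0) by marker gate, 1 bar per library. Mki67 takes a larger share in T cells and macrophages of Flox+ICI and Flox+RI than in tumour cells, and Kif23 its largest share in neutrophils.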

How the data were processed

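Single-cell RNA was measured in 3 libraries, 1 per group, and none was left out. The authors deposited raw UMI counts per gene and barcode, made with Cell Ranger 6.1.2 per the file headers but 6.0 per the submitters' processing notes. Those notes also list Seurat 5.0.3 and mm10 (GRCm38), and the annotation used was not given in the sources used here. Cells with fewer than 200 genes or over 20% mitochondrial UMIs were left out, and doublets were removed with scrublet as called through scanpy 1.11.5, at an assumed rate of 0.8% per 1000 cells. Cells were gated by marker UMIs per 10000 UMIs (tumour 15, T cell 10, macrophage 60, fibroblast 30, neutrophil 150), with cuts set after marker levels were seen. Clusters came from 2000 variable genes, 30 principal components and Leiden resolution 1.

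Levels (CPM) are UMIs per 1e+06 UMIs of a gate. Intervals (scipy 1.17.1) are exact Poisson for levels, Clopper-Pearson for shares and conditional binomial for ratios, all at 95%. Thinned shares are the expected shares over all possible draws of 2000 UMIs, while the phase split and thinned levels come from 1 seeded draw. The members and lists were chosen with earlier results of these data known. Any of the 40 genes with at least 20 UMIs in a pair of libraries could be named, and of each other list the genes with the largest and smallest ratios. Cdkn2d in tumour cells and Mad2l1 in T cells were named after their values were seen. The call rule was tested on simulated data. Alternatives were stricter gates, clusters in place of gates, doublets kept, a lower mitochondrial limit, equal weight per cell, other thinning depths and UMI minimums, and other motif spellings.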

Additional observations from a re-analysis of the deposited data

How the results depend on the processing

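No paired analysis was possible because each group is 1 library. Of 338 values set against a main comparison, 233 kept their direction and size, 94 moved and 11 reversed. Values called reversed lie on the other side of 1, some only just, and their intervals may include 1. Some values not called reversed also lie on the other side of 1 from the main value. Among them are the macrophage G2/M sum against Flox+ICI, under the stricter gate and with equal weight per cell, and a macrophage share ratio against Flox+ICI. The rule that set moved values apart from reversed ones is not given here. The 11 is therefore not a count of all values that crossed 1. Filtering at 10% mitochondrial UMIs, thinning to 3000 UMIs and the Xist filter on fibroblasts changed no direction and no count by over 1.5 times. With the other motif spellings the S-phase genes with a promoter match went from 5 to 2 for E2F and from 2 to 1 for CHR. Small UMI totals limit the T cell and fibroblast values, and no library can be left out without ending a comparison. Member counts under each alternative, the cluster splits and the mitochondrial totals were added after seeing the data. The member counts are given without the share of all genes called under the same alternative, so no background stands beside them. The cause of each change was not tested.

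Values below give the library labelled CKO+RI over Flox+RI unless Flox+ICI is named, in which case they give Flox+RI over Flox+ICI. With the stricter gate, tumour sums moved from 0.911 to 0.718 for S-phase and from 0.980 to 0.690 for G2/M genes, with 6 and 10 called lower. T cell G2/M genes had a sum of 0.709, with 1 called higher and 4 lower. Macrophage sums were 1.08 for S-phase and 1.12 for G2/M genes, with 0 and 1 called higher. In fibroblasts 0 S-phase and 0 G2/M genes were called lower. Against Flox+ICI the tumour sums reversed to 1.69 and 1.77, with 8 S-phase and 12 G2/M genes called higher. T cell sums were 1.60 and 1.46, with 3 and 2 called higher. The macrophage S-phase sum reversed to 1.12 with 0 called lower, and the G2/M sum was 1.86 with 4 called higher and 0 lower. Fibroblasts had 0 of both lists called higher.

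With cells thinned to 1000 UMIs, tumour sums were 0.875 for S-phase genes, with 1 called higher and 1 lower, and 0.907 for G2/M genes. T cell G2/M genes had a sum of 0.738, with 1 called higher and 4 lower. Macrophage sums were 1.08 with 1 S-phase gene and 1.25 with 2 G2/M genes called higher. The fibroblast S-phase sum reversed from 0.681 to 1.23, with 0 S-phase and 0 G2/M genes called lower. Against Flox+ICI the tumour G2/M sum reversed to 1.02, and 1 tumour S-phase gene was called lower. The T cell G2/M sum was 1.45. The macrophage S-phase sum reversed to 1.003 with 2 genes called higher, and 0 macrophage G2/M genes were called lower. Fibroblasts had 0 of both lists called higher.

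With each cell given the same weight, tumour sums were 0.859 and 0.914, the T cell S-phase sum reversed from 0.891 to 1.05, the T cell G2/M sum was 0.747 and the macrophage G2/M sum 1.27. Against Flox+ICI the tumour S-phase sum was 0.984, the tumour G2/M sum reversed to 1.004, and the T cell and macrophage G2/M sums were 1.37 and 1.06. Without mitochondrial UMIs in the totals, tumour sums were 0.900 and 0.968.

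Within macrophage cluster 8 the sums reversed to 0.916 (0.775 to 1.08) for S-phase and 0.877 (0.758 to 1.01) for G2/M genes, with intervals that include 1. This cluster had 0 genes called higher and 1 lower in each list. Against Flox+ICI its S-phase sum reversed to 1.17 with 3 called higher and 0 lower, and its G2/M sum was 1.39 with 4 called higher and 0 lower. Within cluster 9 the S-phase sum reversed to 0.986, with an interval that includes 1 (0.902 to 1.08), and 1 gene was called higher and 2 lower. The G2/M sum of cluster 9 was 1.01 with 3 called higher. Against Flox+ICI its sums were 0.715 with 6 S-phase genes and 0.755 with 4 G2/M genes called lower.

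With no doublets removed the T cell G2/M sum was 0.706. Against Flox+ICI it left 1 T cell S-phase gene called lower and 2 T cell G2/M genes higher, 0 macrophage S-phase and 0 G2/M genes lower, and 5 fibroblast S-phase genes higher. With Leiden clusters in place of gates the T cell G2/M sum was 0.698 with 1 gene called higher, and 1 fibroblast S-phase and 10 G2/M genes were called lower. Against Flox+ICI that gave 1 T cell S-phase gene lower, 3 T cell G2/M genes higher, 1 macrophage G2/M gene lower, and 4 fibroblast S-phase and 20 G2/M genes higher.

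Ratios of the thinned G2/M shares were 0.828 in tumour cells, 0.508 in T cells and 1.24 in macrophages. With at least 1 UMI the tumour and T cell ratios were 0.900 and 0.807, and the T cell ratio against Flox+ICI was 1.17 in place of 1.45. With at least 3 UMIs the T cell ratio was 0.333, and with thinning to 1000 it was 0.761. With at least 3 UMIs after thinning to 1000 the tumour and macrophage ratios were 0.883 and 1.63, and against Flox+ICI they were 1.02 and 0.821, the last in place of 1.11.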

Other observations

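Kif23, a kinesin of the midzone that completes cell division, was the G2/M gene whose level in gated neutrophils came closest to that in tumour cells. It stood at 44.4, 44.3 and 47.4 CPM in neutrophils and at 60.9, 50.6 and 50.6 CPM in tumour cells, in Flox+ICI, Flox+RI and, last, the library labelled CKO+RI. Kif23 made up 11.2%, 7.76% and 10.5% of the G2/M UMIs of neutrophils, from 78, 35 and 49 UMIs, against 2.92%, 2.51% and 2.57% in tumour cells. Top2a, by contrast, stood at 43.9, 48.1 and 37.7 CPM in neutrophils and at 374, 323 and 257 CPM in tumour cells. Macrophages held Kif23 at 12.2, 9.54 and 17.7 CPM, below the neutrophil level in every library.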
